A study of Rattus norvegicus with 34 samples.

Results

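The CYP2C genes encode cytochrome P450 enzymes of the liver that oxidise steroids, retinoids and drugs. The array carried 1 probe for each of 5 of them, Cyp2c6v1, Cyp2c7, Cyp2c11, Cyp2c12 and Cyp2c13, out of 239 probes with a gene name. The 5 probes were found by the gene names printed in the spot files of 1 set of arrays and by the same grid position on the other arrays. All 5 passed the filter on dim probes. RefSeq lists further CYP2C genes of the rat, and the probe sequences were not used here, so signal from a close relative cannot be told apart from that of the named gene.

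The samples came from pregnant Wistar rats dosed daily with EMD 82571, a calcium sensitizer, at 50 or 150 mg/kg/day, or with retinoic acid, or given vehicle. For retinoic acid the protocol gives 12 mg/kg/day and the sample labels give 20 mg. The protocol gives dosing from gestational day 6 to 11 and from day 6 to 17. The 15 groups are each of the 3 treatments in whole embryo and maternal liver on day 12 and in embryo bone, embryo liver and maternal liver on day 20, as the labels count days. Each of the 34 two-colour cDNA arrays carried RNA of a treated sample in Cy5 and RNA of a vehicle sample of the same tissue in Cy3, so the vehicle animals are the reference of every group. Day-12 whole embryo and day-12 maternal liver with retinoic acid had 4 arrays each, and the other 13 groups had 2 each.

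The dyes were never swapped, so a dye effect and a treatment effect cannot be told apart in any single ratio. Whether repeat arrays hold RNA of separate animals is not given in the labels, so p-values measure only the spread between these arrays. The arrays belong to 3 sets by array number, here A (day 12, EMD 82571 and 2 arrays of each retinoic acid group), B (the other 4 day-12 retinoic acid arrays and the day-20 liver arrays with retinoic acid) and C (the rest of day 20). Arrays had from 604 to 976 unmarked spots. The labelled tissues carried their markers: in the vehicle channel the cartilage collagen Col2a1 averaged 12.97 in embryo bone, against 6.73 in embryo liver and 6.84 in day-20 maternal liver (log2 intensity). The plasma protein gene A2m averaged 14.53 in embryo liver and 8.53 in embryo bone.

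In the adult rat these P450 genes differ by sex. Cyp2c11 and Cyp2c13 are expressed mostly in male liver, Cyp2c12 in female liver and Cyp2c7 more in female than in male liver, while Cyp2c6 is expressed in both sexes and responds to phenobarbital-type inducers. The pattern of growth hormone release sets these sex differences, and liver transcription factors such as HNF4 and HNF6 act at CYP2C promoters. The rat Cyp2c7 enzyme is also known to hydroxylate retinoic acid, the comparison compound here. All the mothers are female, whereas the sex of the embryos is not given in the labels.

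The promoters of 4 members are shown because the genes share a chromosome and are known to differ by sex in their expression. They are the 160 bases before the start of each gene on chromosome 1, from RefSeq on build GRCr8, at chr1:247966234-247966393 on the plus strand for Cyp2c7, chr1:246175056-246175215 on the plus strand for Cyp2c11, chr1:248677035-248677194 on the minus strand for Cyp2c12 and chr1:248787189-248787348 on the minus strand for Cyp2c13. Capitals mark 3 motifs on either strand. TATAAAA is the TATA box at which transcription machinery assembles. The letters ATTGATT belong to the core of HNF6-type sites. The third motif, CAAAGTNCA, is of the HNF4 type.
Cyp2c7: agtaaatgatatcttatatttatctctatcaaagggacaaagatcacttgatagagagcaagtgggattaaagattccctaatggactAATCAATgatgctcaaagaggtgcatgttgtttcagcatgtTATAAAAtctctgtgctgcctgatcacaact
Cyp2c11: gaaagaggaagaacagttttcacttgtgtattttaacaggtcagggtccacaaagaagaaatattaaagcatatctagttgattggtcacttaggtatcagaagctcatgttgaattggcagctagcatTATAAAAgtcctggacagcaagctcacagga
Cyp2c12: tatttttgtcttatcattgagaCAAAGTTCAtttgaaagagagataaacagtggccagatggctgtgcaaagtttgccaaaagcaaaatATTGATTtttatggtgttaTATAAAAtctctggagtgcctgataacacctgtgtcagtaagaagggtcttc
Cyp2c13: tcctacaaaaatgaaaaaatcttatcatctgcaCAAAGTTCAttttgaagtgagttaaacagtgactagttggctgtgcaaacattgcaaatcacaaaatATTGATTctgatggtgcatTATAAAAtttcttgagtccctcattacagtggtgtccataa
Both strands were searched, and no 2 matches overlapped. TATAAAA was found in 4 of 4 windows and in 3.34% of 33465 RefSeq promoters of the same length. ATTGATT stood in 3 of 4 windows, in Cyp2c7 as AATCAAT on the opposite strand, and in 1.23% of all promoters. CAAAGTNCA was found in the Cyp2c12 and Cyp2c13 windows and in 0.681% of all promoters. The Cyp2c12 and Cyp2c13 windows were the most alike pair, with 66.1% identical columns in a pairwise alignment, against 44.3% to 53.3% for the other 5 pairs. A match of letters is a description and not a binding site. No promoter of Cyp2c6v1 is printed.

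In vehicle animals 3 of the 5 members were higher on every maternal liver array than on any embryonic array with a value. Cyp2c7 and Cyp2c12 were far lower in embryonic tissue, while Cyp2c6v1 was above background on each embryonic array with a value. Levels are given here as the log2 intensity of the Cy3 channel after background correction and scaling between arrays, and they are compared only within a probe. For Cyp2c7, the retinoic acid hydroxylating member, the 20 embryonic arrays had a lowest value of 6.03, a median of 6.88 and a highest of 8.53, against 12.78, 13.93 and 14.69 on the 14 maternal liver arrays. For Cyp2c12, the female-specific member, the 20 embryonic arrays spanned 6.45 to 7.59 with a median of 7.04, against 12.08 to 13.32 with a median of 12.31 in maternal liver. For Cyp2c6v1, 15 of the 20 embryonic arrays had a usable spot, with values from 7.38 to 11.61 and a median of 9.47, against 11.88 to 12.99 and a median of 12.30 in maternal liver. For these 3 genes no embryonic array with a value reached the range of maternal liver. The embryonic arrays without a Cyp2c6v1 value held only marked spots, so their level is not known. On the second day-12 embryo array at the high dose those spots had a Cy3 signal over background of 2551 to 4403. The first array of that group had 1407 to 2860 and read 11.61. In embryo liver the marked spots of the first low-dose array had 3273 to 4991. The second low-dose array there had 700 to 1176 and read 10.54.

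The male-predominant members were dim in all tissues. Cyp2c11 spanned 6.09 to 7.98 with a median of 6.81 on 19 embryonic arrays with a value, against 6.70 to 7.92 with a median of 7.17 in maternal liver. Cyp2c13 spanned 6.15 to 7.62 with a median of 6.31 on 15 embryonic arrays with a value, against 6.83 to 7.64 with a median of 7.21 in maternal liver. Both ranges overlapped between embryonic tissue and maternal liver. The empty spots of the arrays lay between 5.86 and 6.71 in the same channel, so the lowest of these values are at the level of spots without a probe.

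**Figure D1:**
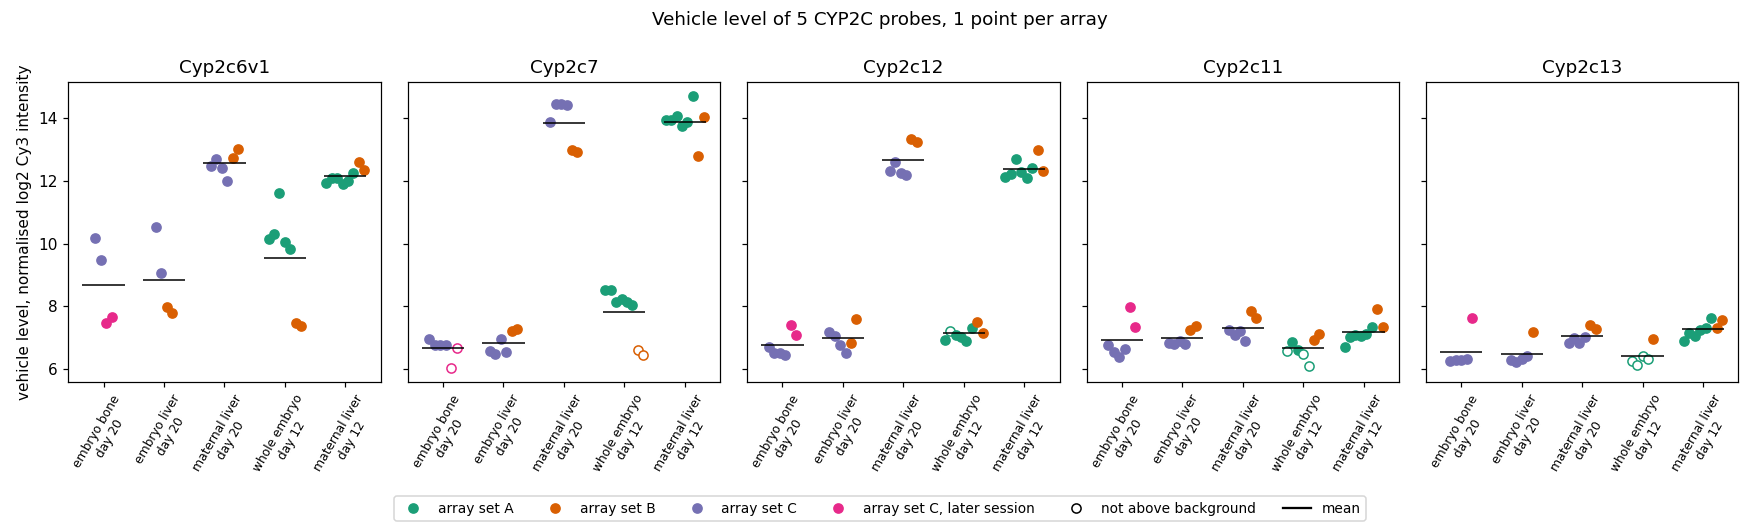
Vehicle (Cy3) level of the 5 CYP2C probes on each array, as log2 intensity, by tissue and day; each point is 1 array. Cyp2c7, Cyp2c12 and Cyp2c6v1 sit above 11.8 on every maternal liver array and lower on every embryonic array with a value, whereas Cyp2c11 and Cyp2c13 stay below 8 throughout.

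The vehicle levels were tested with limma, with array set as a block and Benjamini-Hochberg adjustment over all probes, in 5 comparisons of tissues or days. On day 12 all 5 members were lower in embryo than in maternal liver, where 78% of all probes differed. The log2 difference of embryo minus maternal liver was -6.04 ± 0.22 (SE) for Cyp2c7 (adjusted p = 3.0e-23 in limma) and -5.24 ± 0.14 for Cyp2c12 (adjusted p = 6.6e-27 in limma). These differences are 65.8-fold and 37.7-fold lower levels in embryo, where 6 and 7 of the 8 arrays were above background. Cyp2c6v1 was lower by a log2 difference of -2.57, Cyp2c13 by -0.83 and Cyp2c11 by -0.55, all past the threshold of 0.05. The Cyp2c13 and Cyp2c11 differences lie close to background, since 1 and 4 of the 8 embryo arrays were above it.

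In embryo liver on day 20, Cyp2c7 was 127-fold and Cyp2c12 50.1-fold lower than in maternal liver, where 51% of all probes differed. The log2 differences were -6.98 ± 0.25 and -5.65 ± 0.17 (SE), both called in limma. The embryo liver levels, 6.50 to 7.27 and 6.53 to 7.59, lay near the empty spots of all arrays at 5.86 to 6.71. The background thus limits the size of these folds. Of the hepatocyte markers on the array, A2m (14.53 against 14.94) and Serpina1 (13.49 against 13.44) had vehicle levels near those of day-20 maternal liver. Hnf4a (10.60 against 11.43), Cyp7a1 (9.31 against 11.14) and Cyp2e1 (8.12 against 13.03) read lower in embryo liver. Cyp2c6v1 was 12.2-fold lower in embryo liver on the 4 arrays with a value (adjusted p = 2.4e-06 in limma). The first low-dose and first high-dose embryo liver arrays held only marked spots and did not enter this fold. Their unscaled Cy3 signal over background was 3273 to 4991 and 1945 to 3767. The second arrays of these groups had 700 to 1176 and 387 to 1138. The low-dose maternal liver arrays of that day had 4420 to 5620 and 4185 to 7308. The fold may therefore be too large. The sizes differed by array set: Cyp2c7 was 51.9-fold lower in set B and 198-fold in set C, Cyp2c12 was 66.6-fold and 43.4-fold lower, and Cyp2c6v1 was 31.4-fold and 6.03-fold lower, all past the threshold. Cyp2c13 was lower by a log2 difference of -0.49 (adjusted p = 0.026 in limma), a call not held within either array set (-0.15 with adjusted p = 0.81 in set B and -0.60 with adjusted p = 0.062 in set C, in limma). Cyp2c11 did not pass the test (-0.33 ± 0.18, SE).

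Embryo bone on day 20, against maternal liver, had lower levels of the same 3 bright members among 76.2% of all probes that differed. The log2 differences were -7.29 for Cyp2c7, -5.65 for Cyp2c12 and -4.03 for Cyp2c6v1. For Cyp2c7, 4 of the 6 bone arrays were above background, which limits the size. Between embryo bone and embryo liver no member differed, while 68.6% of all probes did, A2m and the bone collagens among them. The Cyp2c7 difference of bone minus embryo liver was -0.31 ± 0.27 and that of Cyp2c12 was 0.00 ± 0.18 (SE). Between maternal liver of day 20 and day 12 no member differed, with differences of 0.60 ± 0.35 for Cyp2c7, 0.46 ± 0.23 for Cyp2c12 and 0.95 ± 0.71 for Cyp2c6v1 (SE), against 10.3% of all probes. Within set B, the only set with maternal liver of both days, these differences were -0.46, 0.64 and 0.39, none past the threshold. The Cyp2c7 difference thus changed sign, and its means without the block were 13.83 on day 20 and 13.88 on day 12. In all, 12 of 25 member comparisons of vehicle level passed the test, against 57% over all probes.

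The Cyp2c6v1 level in embryonic tissue moved with the array set and the session. Embryo arrays of set A averaged 10.38 ± 0.71 (SD, 5 arrays with a value), whereas the 2 embryo arrays of set B read 7.48 and 7.38. Embryo bone read 10.19 and 9.47 in the first session of set C, and 7.48 and 7.65 in the later session that holds only the retinoic acid arrays. Maternal liver stayed between 11.88 and 12.99 in every set. The embryo was therefore 3.15-fold lower than maternal liver in set A and 33.1-fold lower in set B, past the threshold in each, and no single size can be given. Cyp2c7 in the embryo did likewise, with 8.27 ± 0.20 in set A (SD, n = 6) against 6.61 and 6.45 in set B, where the vehicle channel was not well above background. The Cyp2c12 difference of embryo minus maternal liver was -5.22 in set A and -5.30 in set B.

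Few pairs of member and treatment group passed the test. The log2 ratio of Cy5 (treated) over Cy3 (vehicle) was tested in each of the 15 groups, and 8 of 75 pairs of member and group passed the threshold, against 23.6% of all probe and group pairs. Of the 8, 4 were in embryo bone, 2 in embryo liver, 1 in the embryo and 1 in day-12 maternal liver. Treatment was higher in 3 and lower in 5. Cyp2c6v1 had no call in any group. The median log2 ratio of the 5 members was lowest in embryo with 150 mg/kg/day EMD 82571, at -0.17 against -0.02 for all probes. It was highest in day-20 maternal liver with the same dose, at 0.22 against 0.00 for all probes.

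**Figure D2:**
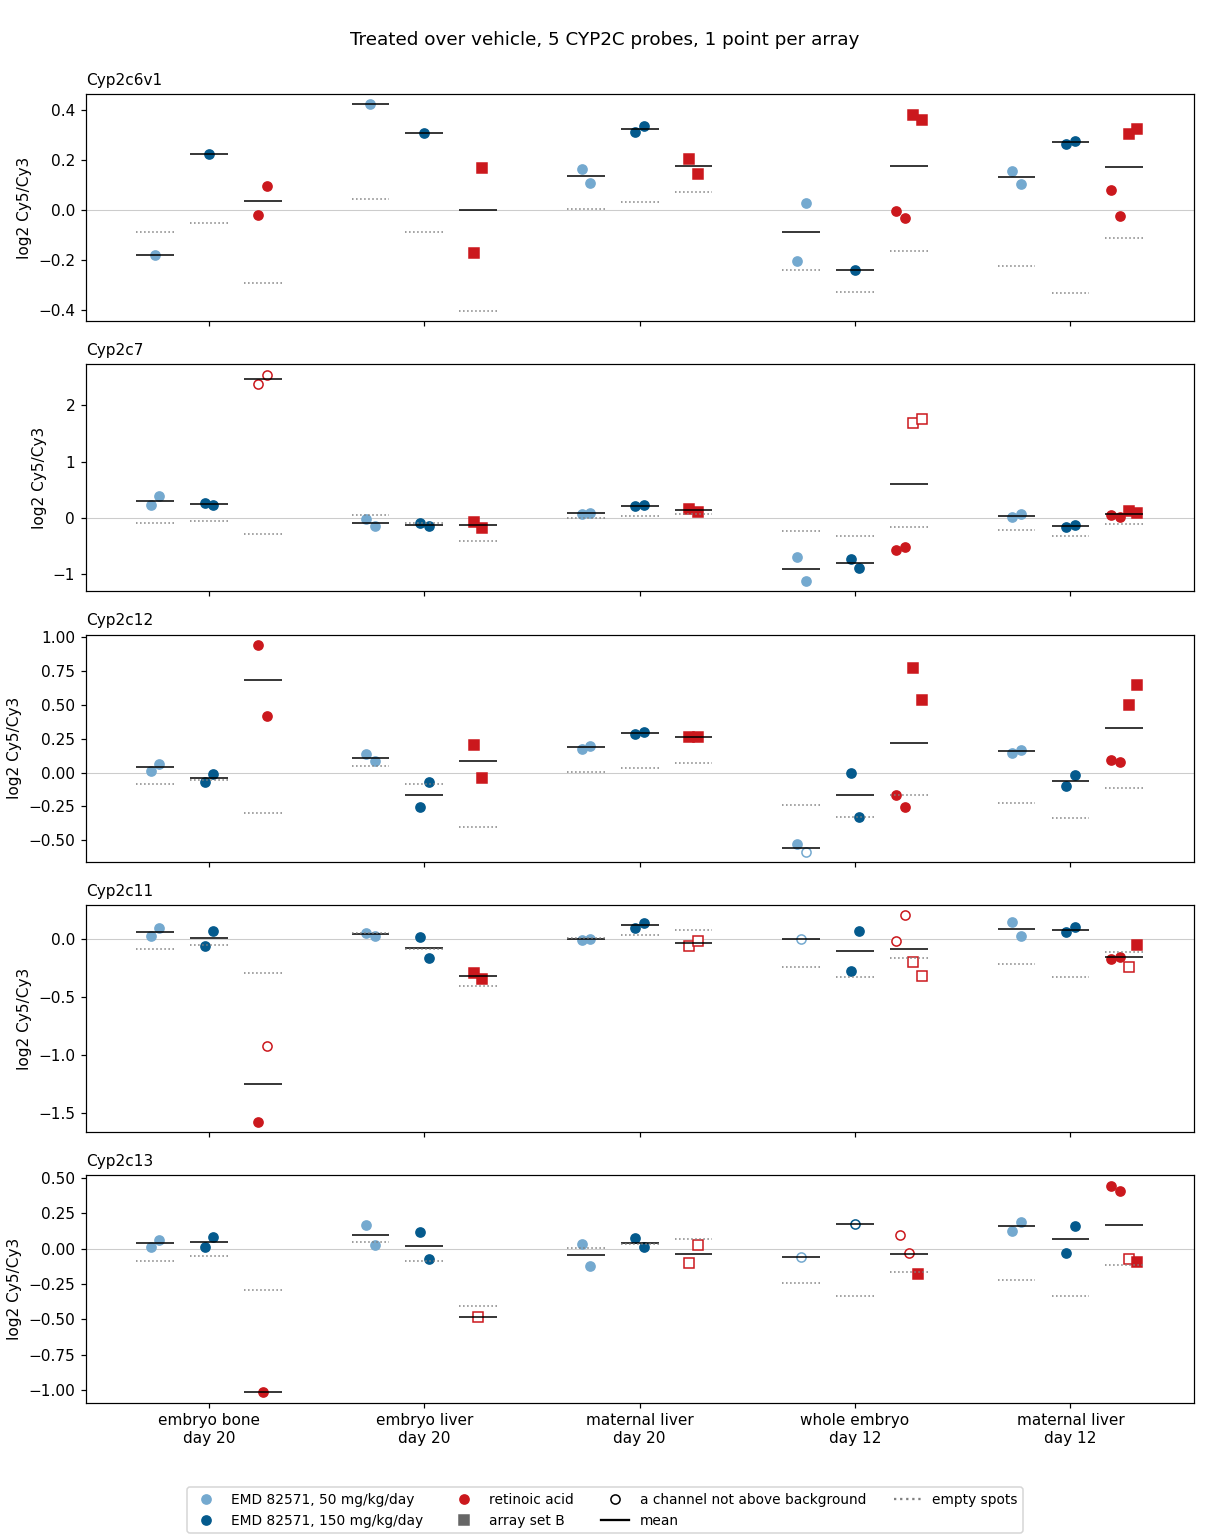
Log2 ratio of treated (Cy5) over vehicle (Cy3) for each CYP2C probe on each array, by tissue, day and treatment; each point is 1 array. Most points lie near 0, the maternal liver points of Cyp2c6v1, Cyp2c7 and Cyp2c12 between -0.17 and 0.65, and the Cyp2c7 points of embryo bone with retinoic acid lie at 2.39 and 2.55.

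In maternal liver, where the 3 bright members can be measured best, the mean ratios were small. Over the 18 pairs of these 3 genes and the 6 maternal groups, the mean log2 ratio ranged from -0.15 to 0.33, and 1 passed the test. Of all probes, 13.4% and 21.6% were called with the low and high dose on day 12, and 10.1%, 7.11% and 17.9% with the low dose, the high dose and retinoic acid on day 20. Cyp2c6v1, whose gene is known to respond to phenobarbital, had ratios of 0.27 and 0.28 on the 2 arrays with 150 mg/kg/day of EMD 82571 on day 12 (mean 0.27 ± 0.10, SE, adjusted p = 0.074 in limma). On day 20 the same dose gave 0.31 and 0.34 (mean 0.32 ± 0.10, SE, adjusted p = 0.074 in limma). At 50 mg/kg/day the arrays read 0.16 and 0.10 on day 12, and 0.17 and 0.11 on day 20. All 8 EMD 82571 arrays of maternal liver were thus above 0, by at most a 1.25-fold mean change, and none of the 4 groups passed the test over all groups. The high dose depended on the processing: it was called under 10 of 14 alternatives on day 12 (log2 ratio 0.15 to 0.54, adjusted p 6.0e-04 to 0.37 in limma) and under 6 of 14 on day 20 (0.20 to 0.33, adjusted p 2.2e-04 to 0.72 in limma). It was called on neither day without one of its 2 arrays. On day 12 at the high dose the inducible genes CYP2B1/2 and Cyp3a23-3a1 on the same arrays had log2 ratios of 5.27 and 2.91. With retinoic acid Cyp2c6v1 read 0.08, -0.02, 0.31 and 0.33 on day 12 (adjusted p = 0.095 in limma), the last 2 on set B, and 0.20 and 0.15 on day 20.

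Cyp2c7 in maternal liver stayed near 0 in each group. Its mean log2 ratios on day 12 were 0.03 with the low and -0.15 with the high dose of EMD 82571 and 0.07 with retinoic acid. On day 20 they were 0.08, 0.22 and 0.13 in the same order of treatments, and none passed the test. Cyp2c12 had the only maternal call, with retinoic acid on day 12, where 28.9% of all probes were called. Its 4 arrays read 0.09 and 0.08 in set A and 0.50 and 0.65 in set B (mean 0.33 ± 0.12, SE, adjusted p = 0.044 in limma). The call rests on set B: with set A alone the adjusted p was 0.48, and it was 0.20 without the third and 0.26 without the fourth array. On day 20, Cyp2c12 read 0.26 and 0.26 with retinoic acid, 0.17 and 0.20 with the low dose and 0.28 and 0.30 with the high dose of EMD 82571, none of which passed. Cyp2c11 and Cyp2c13 in maternal liver had means between -0.16 and 0.17, with no call.

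In the day-12 embryo the member with the largest ratios was Cyp2c7. With 50 mg/kg/day EMD 82571 its arrays read -0.70 and -1.13 (Cy5 level 7.82 and 7.40, against 8.53 and 8.53 for vehicle). With 150 mg/kg/day they read -0.73 and -0.90 (7.43 and 7.34, against 8.15 and 8.24). All 4 arrays were thus lower with EMD 82571, by mean log2 ratios of -0.91 and -0.81, and neither mean passed the test over all groups (adjusted p = 0.081 and 0.16 in limma, SE 0.34 each).

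With retinoic acid the embryo arrays fell on both sides of 0 by array set. Cyp2c7 read -0.56 and -0.51 on the set A arrays, but 1.69 and 1.75 on the set B arrays. The Cy5 levels were 7.58 and 7.55 in set A and 8.30 and 8.20 in set B, whereas the vehicle levels were 8.14 and 8.06 in set A and 6.61 and 6.45, not well above background, in set B. The pooled mean of 0.59 ± 0.24 (SE, adjusted p = 0.063 in limma) therefore describes neither set. Cyp2c12 did the same, with -0.17 and -0.26 in set A and 0.77 and 0.54 in set B. This spread enters the variance that all groups share. With the day-12 retinoic acid groups limited to 1 set, the Cyp2c7 means of the EMD 82571 groups are the same and their adjusted p falls to 1.5e-09 (set A) or 3.6e-09 (set B) at the low dose and to 2.7e-08 or 2.9e-08 at the high dose in limma. Over 14 alternatives the low dose ranged from -1.09 to -0.39 and was called under 4, these 2 limits included. The high dose ranged from -0.98 to -0.29 and was called under these 2 limits only. Some alternatives gave smaller differences that did not pass. With a random block for array set the low dose was at -0.50 and the high dose at -0.40 (adjusted p = 0.41 and 0.62 in limma). With a block for session they were at -0.39 and -0.29 (adjusted p = 0.51 and 0.69 in limma). The high dose was at -0.48 in the authors' deposited log2 ratios. With only the embryo arrays in the fit the adjusted p was 0.51 and 0.68 in limma. Under the limits to 1 set, Cyp2c7 with retinoic acid is called in opposite directions, at -0.54 in set A and 1.72 in set B. Under both limits 20 of the 75 pairs pass, 7 of them among the 8 above, where 33% of all probe and group pairs pass under both (38.3% with set A and 36% with set B).

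Cyp2c12 fell in the embryo with 50 mg/kg/day, at -0.53 and -0.58 (mean -0.56 ± 0.17, SE, adjusted p = 0.033 in limma), where 16% of all probes were called. Its vehicle channel was above background on 1 of the 2 arrays. The call was lost without either array (adjusted p = 0.19 and 0.32 in limma), without background correction (0.13) and with a block for array set (0.28). At 150 mg/kg/day Cyp2c12 read 0.00 and -0.33 and was not called, nor was any other member, against 6.9% of all probes. With retinoic acid no member passed in the embryo, against 33.2% of all probes. On the same arrays the empty spots had mean log2 ratios of -0.24, -0.33 and -0.17 with the low dose, the high dose and retinoic acid. Their part in the ratios of these dim probes was not tested.

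In embryo liver neither EMD 82571 dose moved a member past the threshold, while 13% of all probes were called at the low and 38.7% at the high dose. Cyp2c7 had means of -0.09 and -0.12, and Cyp2c6v1 read 0.43 and 0.31 on the 1 array of each group with a usable spot. With retinoic acid, where 52.6% of all probes were called, Cyp2c11 read -0.29 and -0.35 (mean -0.32 ± 0.11, SE, adjusted p = 0.020 in limma). The empty spots of those arrays read -0.45 at the lowest and -0.35 at the highest, so the Cyp2c11 ratio was no larger than that of spots without a probe. Without either array its adjusted p was 0.11 and 0.16. Cyp2c13 was also called, but rested on 1 spot of 1 array at -0.48. Its treated channel was not well above background on that array, so the size is not a measured one and no bound is given. With 1 array the spread is taken from the other groups, and the empty spots of that array read -0.45, about the same as Cyp2c13. Cyp2c7 and Cyp2c12 had means of -0.13 and 0.08 there and did not pass.

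Embryo bone with retinoic acid held 4 of the 8 calls, in a group where 53.2% of all probes were called. Cyp2c7 rose: its Cy5 levels were 8.42 and 9.21, against vehicle levels of 6.03 and 6.66 on the same arrays. The log2 ratios were 2.39 and 2.55 (mean 2.47 ± 0.34, SE, adjusted p = 2.5e-06 in limma). The vehicle channel was not well above background on either array, so the size is not a measured one. Against the dimmest signal well above background on each array, the change was at least 5.14-fold higher with retinoic acid under the main processing. This bound holds for that processing only, since the log2 ratio was 1.43 without background correction. The 4 replicate spots had a Cy5 foreground over local background of 264 to 440 on the first array and of 249 to 2090 on the second, against 104 to 149 and 115 to 352 in Cy3. The call held under the 13 alternatives that gave a value, with log2 ratios from 1.43 without background correction to 3.10 with a smaller offset. The alternative that asks for both channels above background gave no value for it, because of the dim vehicle channel. With either array left out the log2 ratio was 2.39 or 2.55.

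**Figure D3:**
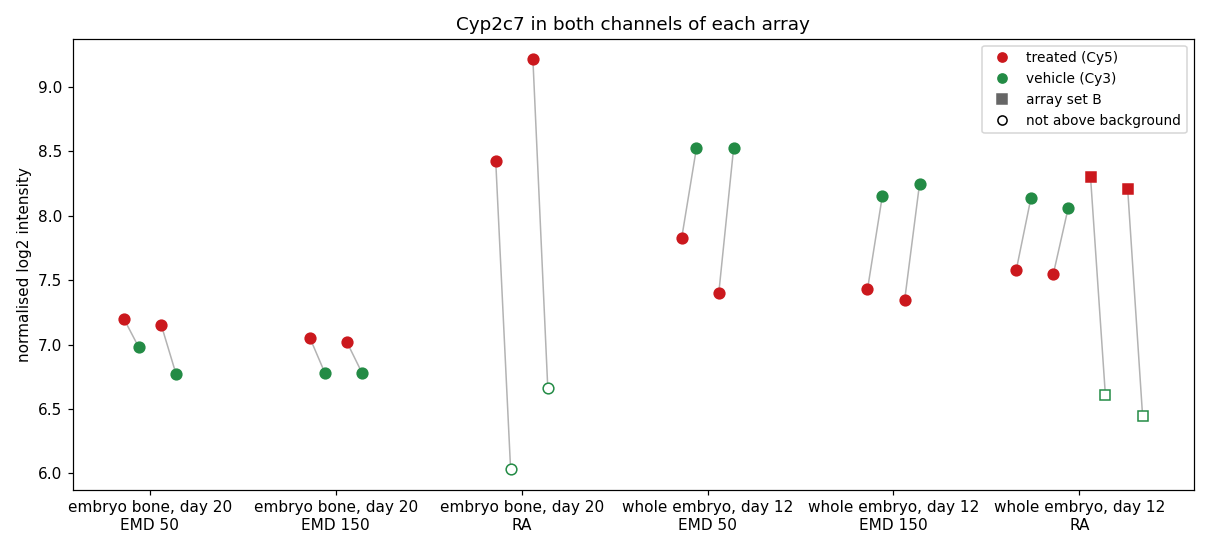
Cyp2c7 level on each array of embryo bone and of day-12 whole embryo in the treated (Cy5) and the vehicle (Cy3) channel, as log2 intensity. Each pair of points is 1 array. In embryo bone with retinoic acid the treated channel reads 8.42 and 9.21 over vehicle levels of 6.03 and 6.66.

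The other 3 calls in bone rest on fewer spots. Cyp2c12 read 0.94 and 0.42 (mean 0.68 ± 0.17, SE, adjusted p = 0.0018 in limma), the first from 1 usable spot. Without that array the adjusted p was 0.17, and the authors' deposited log2 ratios gave -0.11. Cyp2c11 read -1.58 and -0.92 (mean -1.25 ± 0.11, SE, adjusted p = 6.2e-09 in limma), each from 1 usable spot, with its treated level of 6.40 and 6.42 against 7.98 and 7.35 for vehicle. The treated channel was above background on 1 of the 2 arrays, and the empty spots read 6.32 and 6.28 in that channel, so the treated level is close to that of spots without a probe and the size is not a measured one. Its size ranged from -1.79 to -0.40 over the alternatives. Cyp2c13 was measured by 1 spot of 1 array at -1.01, and the call was lost when marked spots were kept (-0.14, adjusted p = 0.17 in limma). The empty spots of those 2 arrays had log2 ratios of -0.29 and -0.30. With EMD 82571, bone had Cyp2c7 ratios of 0.22 and 0.38 at the low and 0.23 and 0.27 at the high dose, and no member passed, against 11.8% and 30.7% of all probes.

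The 4 arrays with high Cyp2c7 ratios, those of embryo bone and of the set B embryo with retinoic acid, also had higher A2m and HSST in the treated channel. Other genes that are bright in maternal liver went both ways, and those with the largest excess over the embryonic tissue were above 0. A2m, at 14.94 in maternal liver of day 20 and 8.53 in embryo bone, had a mean log2 ratio of 2.13 in retinoic acid bone and 1.90 in the set B embryo, against -0.43 in the set A embryo. HSST, named in the files as a hydroxysteroid sulfotransferase, an enzyme that adds sulphate to steroids, had 1.41 in bone and 1.80 in the set B embryo, against -0.63 in the set A embryo. Of the 5 hepatocyte markers on the array, Cyp2e1 (0.55), A2m (2.13), Serpina1 (-0.17), Hnf4a (-0.12) and Cyp7a1 (-1.01) went both ways in retinoic acid bone. Apart from the members, 13 probes had vehicle levels in day-20 maternal liver over 4 log2 units above those in embryo bone, a list chosen after the values were seen. Of the 12 with a value in retinoic acid bone, 6 were above 0 (A2m, HSST, Cyp2d2, CYP2A1/2, CYP2D1/5 and Cyp2e1), against 43.8% of all probes, while Cyp7a1, Cyp3a9 (-0.86), Ugt2b (-0.85) and UGT1A1 (-0.75) fell. These 6 had the largest differences of level, from 5.70 to 7.63, and the probes below 0 had 4.31 to 4.77. Of 11 such probes for the embryo, 7 were above 0 in set B and 3 in set A, against 41.9% and 46.1% of all probes. In set B the probes with the largest differences of level, 6.05 to 7.49, were all above 0 (A2m, HSST, Cyp2e1, Cyp2d2 and CYP2A1/2), and the rest went both ways. Of these named probes only Cyp2d2 was above 0 in set A. The part of RNA from another tissue in the Cyp2c7 result was not tested.

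The 2 doses of EMD 82571 differed for no member. Of the 25 differences of high minus low dose 0 passed, in limma and at an unadjusted p under 0.05, against 5.41% of all probe pairs called. The 95% intervals bound the difference loosely for Cyp2c7, such as -0.91 to 1.11 in the embryo and -1.19 to 0.83 in day-12 maternal liver, and more closely for Cyp2c6v1 in maternal liver, at -0.17 to 0.45 on day 12 and -0.12 to 0.50 on day 20.

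EMD 82571 at 150 mg/kg/day differed from retinoic acid for 6 of 25 pairs, against 27.5% over all probes, at doses that are not matched. Of these, 4 were in embryo bone, where 64.1% of all probes differed: Cyp2c7 by -2.22 (95% interval -3.23 to -1.21), Cyp2c12 by -0.72, Cyp2c11 by 1.26 and Cyp2c13 by 1.07. These are fitted log2 differences that carry the background limits given above. In the embryo Cyp2c7 differed by -1.41 (95% interval -2.28 to -0.53, adjusted p = 0.035 in limma, 10.3% of all probes), a value that pools both array sets of retinoic acid: with set A alone it was -0.27. In embryo liver Cyp2c13 differed by 0.50, from 1 retinoic acid array, where 41.4% of all probes differed.

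Of 60 differences in response between tissues or days, 3 passed, against 22.3% over all probes. All were for retinoic acid in embryo bone minus embryo liver, where 47.8% of all probes differed. The log2 difference was 2.60 for Cyp2c7 (95% interval 1.59 to 3.61), 0.60 for Cyp2c12 (0.09 to 1.10) and -0.93 for Cyp2c11 (-1.26 to -0.60). Bone and liver arrays with retinoic acid came from different array sets and sessions, so tissue and array set cannot be told apart in these differences.

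Of 15 other P450 probes tested in day-12 maternal liver with the high dose of EMD 82571, 6 rose and 1 fell, led by CYP2B1/2, against 21.6% of all probes called. With retinoic acid, Cyp7a1, whose enzyme starts the making of bile acids from cholesterol, rose in day-12 maternal liver (log2 ratio 0.88, adjusted p = 3.5e-10 in limma) and fell in day-20 maternal liver (-1.25, adjusted p = 6.5e-10 in limma). In embryo bone with retinoic acid 4 of 16 rose and 11 fell, with a median log2 ratio of -0.80 against -0.04 for all probes; Cyp1a1, a target of the aryl hydrocarbon receptor, read -1.42. Among all probes of that group with a vehicle level under 8, 60 of 114 were called lower and 16 higher, against 21 lower and 28 higher of 121 brighter probes. All 5 members belong to the first class in that group, Cyp2c7 and Cyp2c12, which rose, as well as Cyp2c11 and Cyp2c13, which fell.

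Of 12 probes for receptors and liver factors that control CYP2C genes or growth hormone signalling, 1 rose and 5 fell in embryo liver with the high dose of EMD 82571, against 38.7% of all probes called. The falls included Igf1, a growth hormone target, at -0.78 (adjusted p = 2.3e-06 in limma) and the forkhead factor Foxa1 at -0.45 (adjusted p = 8.6e-07 in limma), in a group where no CYP2C member was called. In the embryo with retinoic acid 3 rose and 1 fell, a share near the 33.2% of all probes, with Hnf4a at 0.59 and the retinoic acid receptor gene Rarg at -0.23. Hnf4a, too, differed by array set there, at 1.20 in set A and -0.02 in set B. In embryo bone with retinoic acid 1 rose and 5 fell, near the 53.2% of all probes, among them Rxra, a partner of the retinoic acid receptors, at -0.72. In day-12 maternal liver 0 of the 12 rose and 2 fell at the low dose, and 1 rose and 4 fell at the high dose. With retinoic acid 3 rose and 1 fell there. Of all probes, 13.4%, 21.6% and 28.9% were called in these 3 groups. In day-20 maternal liver 1 of the 12 rose and 1 fell at the low dose, and 0 rose and 1 fell with each other treatment. The shares of all probes there were 10.1% at the low dose, 7.11% at the high dose and 17.9% with retinoic acid.

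Likeness to each member was described by Pearson's r of the 15 group mean log2 ratios, among 203 other probes with a value in every group. Cyp2c7 and Cyp2c12 shared their nearest probe, HSST, with r of 0.93 and 0.80. Without the retinoic acid bone group r was 0.87 and 0.67. Next to Cyp2c7 came Col17a1 (0.72, but -0.14 without that group) and Itgb7 (0.70). Cyp2c11 was nearest to Cyp1a1 (0.96), Itgb8 and Gdf9, and Cyp2c13 to Plcb1 (0.94), Itgb8 and Cyp3a2. For Cyp2c6v1 no probe exceeded 0.58, that of Fgf1. The groups share array sets and dye orientation, and the values are descriptions.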

How the data were processed

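The authors deposited, per the file headers, spot intensities and the local background beside each spot, for both channels, without subtraction. They also deposited a table of log2 ratios of Cy5 over Cy3, used here as an alternative. Over arrays its values followed the ratios without background subtraction (median correlation 0.971 over 236 probes, lowest 0.292, and at least 0.93 for the CYP2C probes).

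Intensities were background-corrected with normexp (offset 50) in limma 3.58.1 under R 4.3.3. Ratios were normalised by global loess within each array, and channel levels were scaled with Aquantile. The unmarked replicate spots of a probe, up to 4, were averaged. A spot over 2 SD above its local background was called above background, and a probe when this share of usable spots reached 0.5. Probes that did so in a channel on 2 or more arrays were tested. All 34 arrays entered 1 limma fit of 15 group means with pooled, moderated variances (lmFit, eBayes, prior degrees of freedom 3.34). Vehicle levels were fitted over 5 means of tissue and day with array set as a block. P-values are two-sided and adjusted by Benjamini-Hochberg over the probes of each comparison, with 0.05 as the threshold. Groups and doses come from the labels, replicate numbers only from the accession order.

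The CYP2C members were named in every comparison, with up to 3 genes by smallest adjusted p per tissue and day from lists of other P450 genes and of regulators, and the 3 probes of highest r per member. HSST, A2m and the other probes bright in maternal liver were added after their values were seen. The members and lists were chosen with earlier results of these data known. Alternatives changed the background correction, normalisation, spots, probes, arrays and blocks, and left out each array in turn. The scripts were tested on simulated data. The number of arrays limits the precision.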

Additional observations from a re-analysis of the deposited data

Results flagged for a closer look

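Dixon's test was run in groups of 4 to 10 arrays for an array that stood apart from the rest, which chance alone gives in about 1 of 20 groups. It covered each member's vehicle level by tissue and day and its log2 ratios in the day-12 retinoic acid groups. Of 34 groups tested, levels and ratios together, 3 held such an array, each for a vehicle level. The Cyp2c7 vehicle level in embryo bone was lowest on a retinoic acid array, at 6.03 (log2 intensity), where the 6 bone arrays had a median of 6.78. The Cyp2c13 vehicle level was highest at 7.19 in embryo liver and at 7.62 in embryo bone, against medians of 6.31 and 6.28, each on a retinoic acid array with 1 usable spot. In bone the vehicle level of Cyp2c11 was also higher on the 2 retinoic acid arrays, at 7.66 ± 0.44, than on the 4 arrays with EMD 82571, at 6.59 ± 0.16 (SD). The retinoic acid bone arrays were read in a session of their own, so the session and the vehicle RNA cannot be told apart.

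The response to retinoic acid differed between embryo bone and embryo liver for 3 members by the test of the difference. Of all probes, 47.8% differed there. The bone arrays were of set C and the liver arrays of set B, read in different sessions, so tissue and array set cannot be told apart. The log2 difference of bone minus liver was 2.60 for Cyp2c7, 0.60 for Cyp2c12 and -0.93 for Cyp2c11. Cyp2c7 kept this difference under each alternative that gave a value and without each of the 4 arrays in turn (highest adjusted p 0.0028 in limma). Cyp2c12 lost it under 5 of 14 alternatives and without 3 of the 4 arrays, and Cyp2c11 under 1 of 13, the deposited log2 ratios.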

How the results depend on the processing

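The count of treated over vehicle calls, 8, was 20 with median centring, 3 of 55 pairs with both channels above background, 22 with only the arrays of each tissue and day, 5 with a random block for array set, and 21 or 24 with the day-12 retinoic acid groups limited to set A or B. Over all probe and group pairs the share called was 23.6% in the main fit and 38.3% or 36% with set A or B. The share under the other alternatives is not given, so the counts in this paragraph are no result about the members. The 0 dose differences became 1 with only the arrays of each tissue and day and 2 or 1 under the limit to set A or B. The 6 differences of the high dose of EMD 82571 minus retinoic acid became 1 of 11 with both channels above background, 10 with only the arrays of each tissue and day and 11 with set B. The 3 differences between tissues or days became 10 with median centring, 5 with uneven spots kept, 0 of 41 with both channels above background, 8 with the deposited log2 ratios, 13 with only the arrays of each tissue and day, 10 with a random block for array set or for session, and 21 or 18 with set A or B. The limits by array set remove the spread between sets from the shared variance, the filter on both channels tests fewer pairs, and the causes of the other changes were not tested. The count of 12 vehicle level differences stayed within 11 to 16 under all 9 alternatives. Of single results, Cyp2c7 in the embryo with retinoic acid reversed to -0.54 with set A, and Cyp2c12 in retinoic acid bone to -0.11 with the deposited ratios, which are not background-corrected.

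Leaving out each array in turn gave 6 to 13 calls of treated over vehicle (13 without the second embryo array with retinoic acid), 0 dose differences in each run, 4 to 6 compound differences, 2 to 6 differences between tissues or days (5 or 6 without one of the 4 embryo arrays with retinoic acid or the fourth day-12 maternal liver array with it) and 11 to 15 level differences. Uneven spots, the session block for levels and leaving out the retinoic acid bone arrays were alternatives added after seeing the data. No paired analysis was possible because the labels give no replicate numbers that join samples. Signal over background limits Cyp2c11 and Cyp2c13 in every tissue and Cyp2c7 and Cyp2c12 in embryonic tissue.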
